A study of Homo sapiens with 16 samples.

Results

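RT112 and TCCSUP are established human bladder cancer cell lines, and the question addressed was which genes responded differently to CM-1758, a histone deacetylase inhibitor, in TCCSUP and in RT112. Of the 16 RNA-seq libraries of the series, 8 were used: RT112 control, RT112 treated, TCCSUP control and TCCSUP treated, each with 2 libraries from independent experiments. Treated cells received CM-1758 for 48 h at the IC50 (the concentration giving half-maximal inhibition) determined for that cell line, and control cells received 0.01% DMSO, the vehicle. RT112 was grown in DMEM GlutaMAX and TCCSUP in EMEM, so the line, its medium and its dose cannot be told apart in any difference given here. No gene was deleted or introduced in either line, as far as the labels state. The members described are the genes whose response differed, that is, whose log2 fold change of treated over control in TCCSUP minus the same log2 fold change in RT112 was above 2 or below -2 with an adjusted p under 0.01 (edgeR quasi-likelihood test on raw counts, Benjamini-Hochberg over all tested genes). These were 1839 of 21297 tested genes, or 8.64%.

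Total counts of the 8 libraries ran from 22506431 to 30502612. The counts of a pair of libraries of 1 group differed by more than sampling noise in all 4 groups, with Pearson correlations of log2 CPM (counts per 1000000 counts of a library) from 0.983 to 0.991. A level of 3 counts, taken as the floor, corresponded to 0.0980 to 0.119 CPM. The 11 urothelial and epithelial markers checked summed to 6887 to 7069 CPM in RT112 control and to 1327 to 1450 CPM in TCCSUP control, and the basal keratin KRT5 and the uroplakin UPK2 were at or under 0.383 CPM in each TCCSUP library. The 7 mesenchymal markers summed to 891 to 965 CPM in RT112 control and to 8491 to 9325 CPM in TCCSUP control, although the mesenchymal filament gene VIM was low there, at 3.96 and 3.75 CPM. The 10 leukocyte markers, which neither line should carry, summed to 4.4 to 9.39 CPM in RT112 and to 32.7 to 42 CPM in TCCSUP, with 1 of them at 0 in all 8 libraries. The 6 endothelial markers summed to 4.30 to 6.88 CPM in RT112, to 194 to 227 CPM in TCCSUP control and to 18.3 to 20.3 CPM in TCCSUP treated. Most of it came from TEK, the angiopoietin receptor, with means of 209 and 13.3 CPM in TCCSUP control and treated, and their part in the results was not tested.

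The extracellular matrix is built from fibrillar and network-forming collagens, glycoproteins such as fibronectin and the fibrillins, and proteoglycans, and cells hold on to it through laminins and integrins. Collagen chains are hydroxylated, chaperoned and cross-linked by dedicated enzymes before they form fibers. Carcinoma cells that have passed through epithelial-mesenchymal transition (EMT) express many of these genes together with N-cadherin, contractile proteins and the transcription factors SNAI, TWIST and ZEB, while cells of urothelial character keep E-cadherin, keratins and junction proteins.

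CM-1758 changed many genes in each line, and in these bulk libraries fewer cells expressing a gene and less RNA per cell cannot be told apart. In TCCSUP, 2246 genes (10.5%) were lower and 4079 (19.2%) higher at an adjusted p under 0.01 and a log2 fold change beyond 1, and in RT112, 1549 (7.27%) were lower and 3427 (16.1%) higher. With libraries scaled by their size alone, the split in TCCSUP was 1437 lower and 5177 higher. The median log2 fold change of all genes rose by 0.31 in TCCSUP and by 0.15 in RT112, which shifted the difference between the lines by 0.16. Across the 21297 genes the responses had a Pearson correlation of 0.488 and a Spearman correlation of 0.498, given as a description since genes are not independent replicates. The response was lower in TCCSUP than in RT112 for 1001 genes (4.70%) and higher for 838 (3.93%). Of the 1001 genes, 425 rose in RT112 with no call in TCCSUP, 264 fell in TCCSUP with no call in RT112, 189 fell in TCCSUP and rose in RT112, 104 rose in both lines, 11 fell in both and 8 had no call in either. Among the 838 genes, 504 rose in TCCSUP alone, 172 rose in both, 76 rose in TCCSUP and fell in RT112, 71 fell in RT112 alone, 12 had no call in either and 3 fell in both. The genes moving in opposite directions were thus 189 (0.887% of tested genes) in one direction and 76 (0.357%) in the other. The second count was 49 without RT112 treated replicate 1. At the threshold itself, HYLS1 lay just inside and CTH just outside, both at a log2 difference of -2.00, and IGSF3 and EPB41L4A-AS1 lay on either side of 2.00.

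**Figure D1:**
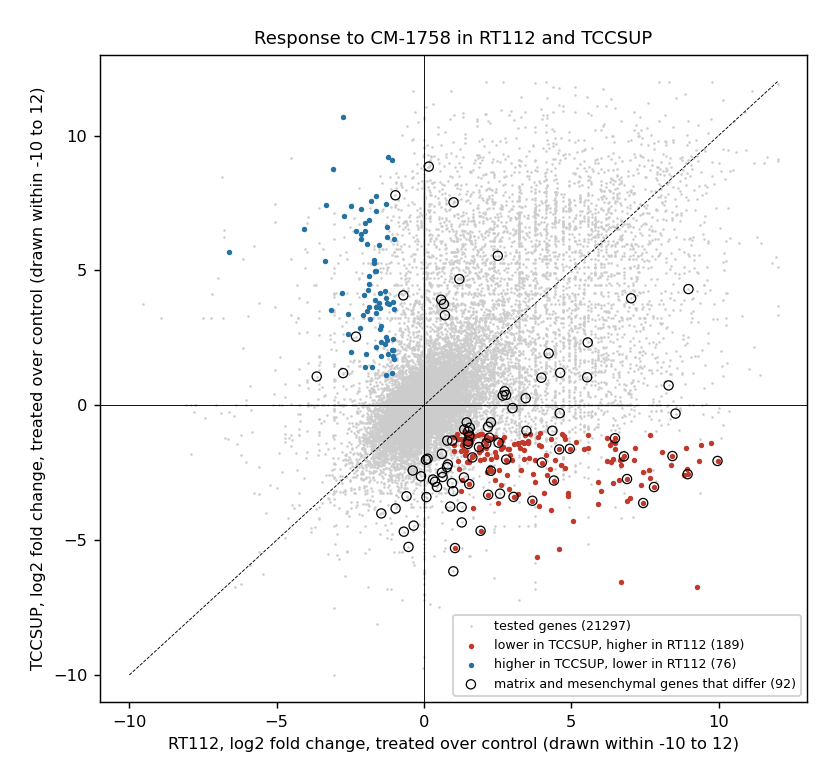
Log2 fold change of treated over control in RT112 (horizontal axis) and TCCSUP (vertical axis) for each of the 21297 tested genes, with the 189 genes that fell in TCCSUP and rose in RT112 in red, the 76 with the reverse pattern in blue, and circles around the 92 matrix and mesenchymal genes that differed. Of the circled genes, 80 lie on the side of a lower response in TCCSUP.

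Matrix and mesenchymal genes formed 8 lists with 221 tested members of 231. Of these, 80 (36.2%, against 4.70% of all tested genes) had a lower response in TCCSUP and 12 (5.43%, against 3.93%) a higher one, and the median log2 difference was -1.57 against 0.07 for all tested genes. In TCCSUP 99 members fell and 35 rose, where 10.5% and 19.2% of all tested genes did. In RT112 20 fell and 76 rose, against 7.27% and 16.1% of all. The pattern of a fall in TCCSUP with a rise in RT112 was met by 28 members (12.7%, against 0.887%). The reverse pattern was met by 0, against 0.357% of all tested genes, too low a share to set 0 of 221 apart. Without 1 library at a time, the 28 became 23 to 27. With 10 counts required in each of the 8 libraries, 14 members met the pattern, and not all of these are among the 28. That filter drops those of the 28 at the floor in RT112 control. It also drops others under 10 counts there, such as DCN and ITGB3. As the members were chosen with this contrast in view, these shares are a description. Chosen after their values were seen, since they make up this group, the 28 genes were the collagens COL1A1, COL5A2, COL6A1, COL15A1 and COL16A1, the processing genes LOXL2, FKBP10 and P3H3, the glycoproteins and proteoglycans SPARC, DCN, VCAN, VTN, CTHRC1, THBS2 and EFEMP2, the integrins ITGB3 and ITGB8, the proteases and inhibitors TIMP2, ADAM19 and SERPINE2, the transcription factors TWIST1 and ZEB2, and CDH2, ACTA2, CNN1, PDGFRB, THY1 and FGF2.

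**Figure D2:**
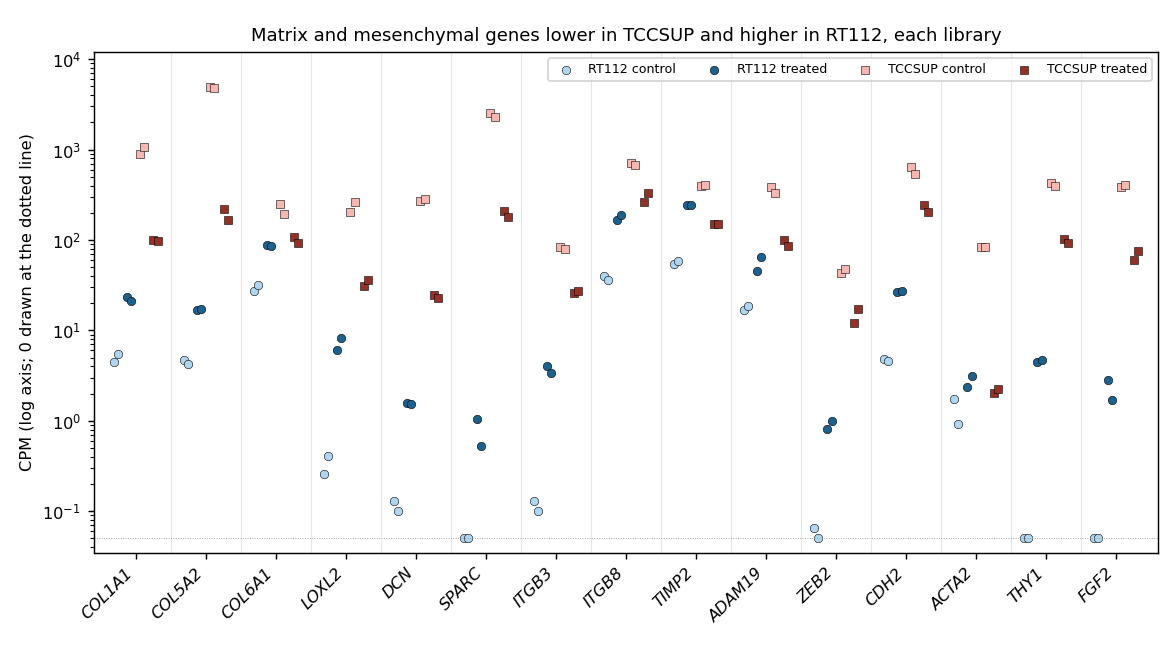
CPM on a log axis in each of the 8 libraries for 15 of the 28 matrix and mesenchymal genes that fell in TCCSUP and rose in RT112; circles are RT112 and squares TCCSUP, light for control and dark for treated, with 0 drawn at the dotted line. The treated libraries lie below the control libraries in TCCSUP and above them in RT112 for all 15 genes, which goes with their choice. For 13 of them the RT112 treated level stays below the TCCSUP treated level.

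Among collagens, 13 of 42 tested members (31%, against 4.70% of all) had a lower response in TCCSUP and 7 (16.7%, against 3.93%) a higher one. In TCCSUP 10 collagens fell and 12 rose, where 10.5% and 19.2% of all tested genes did. In RT112 4 fell and 18 rose, against 7.27% and 16.1% of all. The fibrillar chains COL1A1, COL1A2, COL3A1 and COL5A2 were among those that fell in TCCSUP, whereas the fibrillar COL5A1 rose. COL1A1, which encodes the alpha-1 chain of type I collagen, was at 895 and 1079.5 CPM in TCCSUP control and 100.2 and 97.8 CPM in TCCSUP treated, and at 4.44 and 5.49 CPM in RT112 control and 23.7 and 21.3 CPM in RT112 treated. Its groups did not overlap in either line, as was so for all 189 genes that fell in TCCSUP and rose in RT112. These genes were chosen by their calls in both lines, so the lack of overlap adds no support. Its log2 fold changes of -3.32 and 2.18 differed by -5.50 ± 0.29 (SE, adjusted p = 1.32e-08). COL5A2, a type V chain that sits in the core of type I fibers, was at 4878 and 4846 CPM in TCCSUP control and 221 and 165 CPM after treatment, against 4.71 and 4.27 and then 16.9 and 17.1 CPM in RT112. The fall in TCCSUP and the smaller rise in RT112 gave a log2 difference of -6.57 ± 0.28 (adjusted p = 1.85e-09). COL6A1, a chain of the beaded-filament collagen VI, moved less, from 248 and 192 to 109 and 93.5 CPM in TCCSUP and from 27 and 32.1 to 87.3 and 84.9 CPM in RT112. After treatment the lines stood close to each other (log2 difference of response -2.66 ± 0.41, adjusted p = 0.000187).

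COL3A1 and COL1A2 fell in TCCSUP with no call in RT112. COL3A1, the type III chain, went from 632 and 683 to 10.1 and 8.34 CPM in TCCSUP and from 1.57 and 1.42 to 2.62 and 3.36 CPM in RT112. It missed only the fold limit there, at a log2 fold change of 0.996 (adjusted p = 0.00357), and its responses differed (log2 difference -7.15 ± 0.31, adjusted p = 4.71e-09). COL1A2, the partner chain of COL1A1, fell from 5056 and 5347 to 273 and 239.7 CPM in TCCSUP. In RT112 it had 4 and 3 counts in control and 10 and 5 counts after treatment, with no call (log2 difference -5.63 ± 0.81, adjusted p = 0.000114). COL6A3 showed another pattern: it rose in RT112 from 0 and 5 counts to 23.6 and 31.8 CPM and had no call in TCCSUP, at 52.8 and 41.2 CPM in control and 64.8 and 91.9 CPM treated. Its difference of -7.56 was -11.82 without RT112 control replicate 2. COL15A1, with 0 counts in both RT112 control libraries, was at 1.41 and 1.75 CPM in RT112 treated, at least 15.8-fold higher against a floor of 3 counts per library. The 7 collagens on the other side included COL5A1 (TCCSUP 0.356 and 0.153 to 3.48 and 4.29 CPM, RT112 76.5 and 99.1 to 149.9 and 113 CPM) and the hemidesmosome collagen COL17A1, which fell in RT112 from 207 and 184 to 7 and 24.3 CPM and had no call in TCCSUP. COL4A1, of the basement membrane network, did not differ at the threshold (log2 difference 0.73 ± 0.55, adjusted p = 0.37), and it fell in RT112 from 379.9 and 383 to 90.9 and 101 CPM. The median log2 difference of the collagens, -1.56, was -0.50 without TCCSUP control replicate 2, -0.90 without RT112 treated replicate 1 and -0.69 with counts under 3 set to 3.

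Of 28 collagen processing genes, 9 (32.1%, against 4.70% of all) had a lower response in TCCSUP and 0 (against 3.93%) a higher one. In TCCSUP 17 fell and 2 rose, where 10.5% and 19.2% of all tested genes did. In RT112 4 fell and 7 rose, against 7.27% and 16.1% of all. LOXL2, a lysyl oxidase-like enzyme of cross-linking, was at 203 and 261 CPM in TCCSUP control and 30.8 and 36.4 CPM in TCCSUP treated, and at 0.261 and 0.406 CPM in RT112 control and 6.14 and 8.20 CPM in RT112 treated. Its responses differed (log2 difference -7.20 ± 0.49, adjusted p = 1e-07). LOX itself fell in TCCSUP from 296 and 363 to 20.5 and 27.8 CPM and stayed at or under 0.953 CPM in RT112, where it passed no test (log2 difference -5.05 ± 0.66, adjusted p = 4.47e-05). FKBP10, an endoplasmic reticulum prolyl isomerase of procollagen, fell from 190.0 and 174 to 35.8 and 31.7 CPM in TCCSUP, and the rise in RT112 was from 5 and 2 counts to 19 and 11 counts. The protease ADAMTS14, which trims procollagen, rose in RT112 from 0 and 7 counts to 6.14 and 5.11 CPM and had no call in TCCSUP (11.6 and 12.7 to 18.1 and 31.9 CPM). Its difference of -4.50 was -9.22 without RT112 control replicate 2. SERPINH1, the collagen chaperone HSP47, did not follow the split: it fell in TCCSUP from 1033 and 961 to 41.6 and 46.3 CPM and in RT112 from 139.5 and 140.3 to 10.7 and 11 CPM. The log2 fold changes were -4.50 and -3.69, and their difference missed the threshold (-0.81 ± 0.29, adjusted p = 0.0466).

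Matrix glycoproteins and proteoglycans held 14 of 43 members (32.6%, against 4.70% of all) with a lower response in TCCSUP and 2 (4.65%, against 3.93%) with a higher one. DCN, the small proteoglycan decorin, was at 271 and 284 CPM in TCCSUP control and 24.9 and 22.8 CPM in TCCSUP treated. In RT112 it went from 4 and 3 counts to 40 and 40 counts, which is 1.56 and 1.52 CPM. Its level in RT112 treated was 0.557% of that in TCCSUP control (log2 difference of response -7.22 ± 0.63, adjusted p = 1.89e-06). SPARC, a collagen-binding glycoprotein, fell in TCCSUP from 2534 and 2299 to 212 and 180.3 CPM and had 0 counts in both RT112 control libraries and 27 and 14 counts in RT112 treated, at least 7.96-fold higher. VCAN, the large proteoglycan versican, likewise had 0 counts in RT112 control and 30 and 23 in RT112 treated, at least 10.3-fold higher, while it fell in TCCSUP from 329 and 259.5 to 34.2 and 37.9 CPM. CTHRC1, a secreted protein linked to collagen deposition, fell in TCCSUP from 65.2 and 67.9 to 5.99 and 6.65 CPM and went from 5 and 0 counts to 26 and 11 counts in RT112. Its difference of -6.44 was -10.68 without RT112 control replicate 1.

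FBN1, FN1 and IGFBP5 fell in TCCSUP with no call in RT112, where FN1 missed only the fold limit (0.79 on the log2 scale, adjusted p = 0.00156). FBN1, fibrillin-1 of the microfibrils, was at 1894 and 1523 CPM in TCCSUP control and 139.9 and 113 CPM treated, against 2.55 and 2.27 and 4.26 and 4.69 CPM in RT112 (log2 difference -4.65 ± 0.35, adjusted p = 2.65e-07). IGFBP5, a binding protein of insulin-like growth factors that also binds matrix, fell from 1279 and 1076 to 51.5 and 55.4 CPM in TCCSUP and lay between 0.801 and 1.52 CPM in RT112. FN1, fibronectin, was at 4598 and 3869 CPM in TCCSUP control and 1889.9 and 1528 CPM treated, and at 879 and 953 and 1605 and 1563 CPM in RT112. Its log2 difference of -2.10 ± 0.24 (adjusted p = 1.56e-05) was close to the fold limit and became -1.97 without TCCSUP control replicate 1, -1.95 without TCCSUP treated replicate 2 and -1.94 with library size alone. TGFBI, a secreted protein that binds collagen and integrins, fell in each line, from 497 and 432 to 119 and 101 CPM in TCCSUP and from 477 and 433 to 124 and 152 CPM in RT112 (log2 difference -0.35 ± 0.30, adjusted p = 0.449).

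Among 12 laminins, the heterotrimer chains of the basement membrane, 2 (16.7%, against 4.70% of all) had a lower response in TCCSUP and 1 (8.33%, against 3.93%) a higher one. LAMA4 fell from 1164 and 1079 to 113 and 119 CPM in TCCSUP, while RT112 went from 0 and 11 counts to 24 and 34 counts without passing the test (log2 difference -5.86 ± 0.97, adjusted p = 0.000473). That difference was -11.21 without RT112 control replicate 2, the library with 11 counts. LAMA1 rose in each line, and more in TCCSUP, from 4.23 and 6.51 to 211 and 289.6 CPM, than in RT112, from 5.10 and 5.69 to 27.9 and 33.3 CPM (log2 difference 3.04 ± 0.41, adjusted p = 6.39e-05).

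Integrins, the receptors for these matrix proteins, had 7 of 20 members (35%, against 4.70% of all) with a lower response in TCCSUP and 0 (against 3.93%) with a higher one. ITGB3, a subunit of a vitronectin receptor, was at 83.3 and 78.7 CPM in TCCSUP control and 26 and 27 CPM treated. It rose in RT112 from 4 and 3 counts to 4.07 and 3.39 CPM (log2 difference -6.56 ± 0.44, adjusted p = 9.18e-08). ITGB8, a partner of the alpha-V subunit, was well above the floor in each group, at 707 and 670.0 and then 267 and 332 CPM in TCCSUP and at 40.0 and 36.1 and then 166 and 188 CPM in RT112. Its log2 difference was -3.42 ± 0.48 (adjusted p = 8.55e-05). ITGA5, of the fibronectin receptor, and ITGA11, of a collagen receptor, fell in TCCSUP, from 1552 and 1424 to 265 and 262 CPM and from 163 and 142 to 26.5 and 21.9 CPM, with no call in RT112.

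Matrix proteases and their inhibitors were more mixed, with 8 of 30 members (26.7%, against 4.70% of all) lower and 2 (6.67%, against 3.93%) higher in TCCSUP's response. TIMP2, an inhibitor of metalloproteinases, was at 396 and 405 CPM in TCCSUP control and 149 and 151 CPM treated, and at 54.6 and 58 CPM in RT112 control and 242 and 246 CPM treated. The order of the lines was thus exchanged by treatment, without overlap of any groups (log2 difference -3.54 ± 0.31, adjusted p = 1.19e-06). ADAM19, a membrane-bound metalloproteinase, fell in TCCSUP from 388 and 327 to 100.4 and 86.7 CPM and rose in RT112 from 16.9 and 18.6 to 45.9 and 64.8 CPM (log2 difference -3.58 ± 0.26, adjusted p = 1.95e-07). MMP16, a membrane-type metalloproteinase, rose in RT112 from 2.97 and 3.15 to 20.2 and 29 CPM with no call in TCCSUP. The collagenase MMP1 went the other way, falling in RT112 from 96.3 and 83.1 to 5.52 and 21.2 CPM with no call in TCCSUP (6.72 and 9.26 to 11.9 and 24.7 CPM). For the gelatinase MMP2 and the inhibitor TIMP1 the differences of -0.52 ± 1.43 and 1.06 ± 0.37 missed the threshold (adjusted p = 0.893 and 0.0463).

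Of 12 EMT transcription factors, 6 (50%, against 4.70% of all) had a lower response in TCCSUP and 0 (against 3.93%) a higher one. In RT112 7 rose, where 16.1% of all tested genes did. In TCCSUP 2 rose and 2 fell, against 19.2% and 10.5% of all. ZEB1, a repressor of E-cadherin, was at 0.686 and 0.169 CPM in RT112 control and 5.40 and 4.16 CPM treated. TCCSUP had 25.6 and 25.7 and then 28.8 and 32.7 CPM and no call (log2 difference -3.19 ± 0.38, adjusted p = 2.23e-05). Its relative ZEB2 fell in TCCSUP from 43.7 and 47.3 to 12.2 and 17.1 CPM and went in RT112 from 2 and 0 counts to 21 and 26 counts, at least 9.08-fold higher. TWIST1 fell in TCCSUP from 34 and 39.8 to 16 and 15.7 CPM and had 0 counts in RT112 control and 14 and 7 counts in RT112 treated, at least 4.08-fold higher. SNAI1 rose in each line, from 3 and 8 counts to 10.2 and 7.43 CPM in RT112 and from 2.25 and 2.68 to 13.4 and 11.4 CPM in TCCSUP. Its difference of -3.23 ± 0.80 (adjusted p = 0.00695) missed the threshold without any single one of the 8 libraries, at adjusted p from 0.0102 to 0.053, with library size alone (adjusted p = 0.0108) and with the replicate block (adjusted p = 0.0199). SOX9, a factor of progenitor and cartilage cells, rose in RT112 from 8.07 and 7.89 to 51.1 and 50.7 CPM with no call in TCCSUP. SNAI2 did not differ at the threshold (0.63 ± 0.24, adjusted p = 0.072).

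The mesenchymal surface and cytoskeleton list had the lowest median log2 difference, -2.72, among the 14 lists. Its members were lower in TCCSUP's response for 21 of 34 (61.8%, against 4.70% of all) and higher for 0 (against 3.93%). CDH2, the N-cadherin of mesenchymal and neural cells, was at 636 and 531 CPM in TCCSUP control and 243 and 203 CPM treated, and at 4.84 and 4.54 CPM in RT112 control and 26.6 and 27.6 CPM treated. It fell in the line that had more of it and rose in the other (log2 difference -3.92 ± 0.23, adjusted p = 3.69e-08). CDH1, the E-cadherin of epithelia, had no call in either line or in the difference, with 461 and 473 and then 875 and 872 CPM in RT112 and 20.6 and 13.6 and then 19.8 and 12.5 CPM in TCCSUP. The value in RT112, 0.90 on the log2 scale, passed the limit of p (adjusted p = 0.00227) and not that of the fold (log2 difference -0.99 ± 0.30, adjusted p = 0.0229).

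The contractile genes ACTA2, TAGLN and CNN1 fell in TCCSUP. ACTA2, smooth muscle actin, went from 82.8 and 84.7 to 2.02 and 2.24 CPM in TCCSUP and from 1.73 and 0.915 to 2.39 and 3.13 CPM in RT112. It ended at a similar level in the lines (log2 difference -6.35 ± 0.39, adjusted p = 4.85e-08). TAGLN, the actin-binding transgelin, fell in TCCSUP from 358 and 393 to 12.2 and 7.43 CPM with no call in RT112 (18.1 and 21.4 to 13.1 and 14.3 CPM). The galectin LGALS1 and the membrane protein PMP22 rose in RT112, from 10.8 and 9.52 to 271 and 225 CPM and from 1.80 and 0.813 to 13.7 and 15.6 CPM, with no call in TCCSUP. There LGALS1 went from 414 and 427 to 375 and 311 CPM, and PMP22 from 113 and 115 to 56.7 and 61.3 CPM, which missed only the fold limit (-0.95 on the log2 scale, adjusted p = 0.000414). THY1 (CD90), FGF2 (a fibroblast growth factor), CNN1 (calponin) and PDGFRB (a receptor of platelet-derived growth factor) all had 0 counts in both RT112 control libraries and were at least 45.8-, 22.7-, 5.41- and 5.03-fold higher in RT112 treated, while in TCCSUP they fell by 2.06, 2.55, 2.73 and 1.89 on the log2 scale. VIM, vimentin, did not fall: it rose in each line, in TCCSUP from 3.96 and 3.75 to 14.5 and 14.8 CPM and in RT112 from 0.719 and 0.169 to 10.6 and 6.37 CPM. Its difference of -2.31 ± 0.50 (adjusted p = 0.00302) was -3.68 without RT112 control replicate 1 and lost the call without RT112 control replicate 2 (-1.63), RT112 treated replicate 1 (-1.89), TCCSUP control replicate 1 (-2.27, adjusted p = 0.0106) or TCCSUP treated replicate 1 (-2.30, adjusted p = 0.0103).

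Epithelial genes split in both directions. Of 44 tested junction, polarity and epithelial regulator genes, 6 (13.6%, against 4.70% of all) had a lower response in TCCSUP and 9 (20.5%, against 3.93%) a higher one. Their median log2 difference was -0.22. CXADR, a tight-junction-associated receptor, rose in TCCSUP from 1.58 and 0.842 to 98.7 and 81 CPM. RT112 had 379 and 369 and then 501 and 497 CPM and no call (log2 difference 5.79 ± 0.46, adjusted p = 4.51e-07). DSP, the desmosome protein desmoplakin, rose in TCCSUP from 1.70 and 1.19 to 23.1 and 20.1 CPM and was between 605 and 673 CPM in each RT112 library. CGN, cingulin of tight junctions, rose in both lines and more in TCCSUP, from 1.78 and 1.03 to 35.5 and 35.1 CPM against 24.3 and 28.7 to 81.5 and 65.9 CPM in RT112. MUC1, a transmembrane mucin, fell in TCCSUP from 5.22 and 6.70 to 1.09 and 1.34 CPM and rose in RT112 from 1.24 and 1.93 to 6.77 and 8.08 CPM. The reverse held for MARVELD3 and DSC3, junction genes with 0 counts in TCCSUP control, which were at least 3.75- and 6.89-fold higher in TCCSUP treated and fell by 1.25 and 1.30 on the log2 scale in RT112. EPCAM had no call (log2 difference -0.86 ± 0.28, adjusted p = 0.0334).

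Of 23 genes of urothelial differentiation and keratins, 2 (8.7%, against 4.70% of all) had a lower response in TCCSUP and 4 (17.4%, against 3.93%) a higher one. The keratin pair of simple epithelia, KRT8 and KRT18, fell in TCCSUP, from 179 and 168 to 55.3 and 39.2 CPM and from 899.7 and 1038 to 188 and 138 CPM, with no call in RT112. FGFR3, a receptor often altered in bladder cancer, rose in TCCSUP from 1.58 and 2.37 to 24.1 and 22.9 CPM and fell in RT112 from 829 and 807 to 441 and 374 CPM. It stayed far higher in RT112 (log2 difference of response 4.57 ± 0.24, adjusted p = 1.28e-08). TP63, a factor of basal urothelium, rose in TCCSUP from 0.554 and 1.11 to 3.52 and 3.70 CPM and had no call in RT112 (2.41 ± 0.46, adjusted p = 0.00113, which became 0.0119 without TCCSUP control replicate 1). KRT20, an umbrella cell keratin, had 0 counts in TCCSUP control and was at least 33.3-fold higher in TCCSUP treated. In RT112 its counts also went up, from 198 and 194 to 410 and 488. SNX31 rose in TCCSUP from 0 to 11 and 11 counts and fell in RT112 from 246 and 150 to 7 and 13 counts. GATA3, a urothelial transcription factor, had no call in either line (0.09 ± 0.71, adjusted p = 1).

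TGF-beta signalling, a classical inducer of matrix genes, had 5 of 39 members (12.8%, against 4.70% of all) lower and 4 (10.3%, against 3.93%) higher in TCCSUP's response. The ligand TGFB2 fell in TCCSUP from 657 and 555 to 32 and 36.2 CPM and lay between 3.66 and 5.55 CPM in RT112 (log2 difference -4.27 ± 0.31, adjusted p = 1.75e-07). The ligand TGFB1 did not differ at the threshold (-0.68 ± 0.26, adjusted p = 0.0664). FST, the activin-binding follistatin, fell in TCCSUP from 71.6 and 116 to 21.3 and 26.4 CPM with no call in RT112. The co-receptor TGFBR3 rose in TCCSUP from 2.45 and 2.37 to 22.2 and 22 CPM and had no call in RT112, at 109.7 and 122 CPM in control (log2 difference 3.34 ± 0.37, adjusted p = 1.14e-05).

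Of 22 genes of the YAP and TEAD factors and their targets, 5 (22.7%, against 4.70% of all) had a lower response in TCCSUP and 0 (against 3.93%) a higher one. CCN2, a secreted target of YAP and of TGF-beta, rose in RT112 from 3.53 and 7.62 to 105 and 169 CPM with no call in TCCSUP, at 119 and 186 and then 455 and 249 CPM (log2 difference -3.42 ± 0.54, adjusted p = 0.00026). TEAD2, a DNA-binding partner of YAP, fell in TCCSUP from 41.7 and 48.8 to 7.37 and 9.01 CPM and rose in RT112 from 1.5 and 0.508 to 4.34 and 4.69 CPM. The receptor kinase AXL fell in TCCSUP from 659 and 676 to 58.6 and 67.6 CPM and lay between 14.6 and 17.4 CPM in RT112. F3, tissue factor, rose in RT112 from 70.8 and 112 to 272 and 255 CPM. In TCCSUP it went from 1211 and 1162 to 693 and 529 CPM and missed only the fold limit (-0.96 on the log2 scale, adjusted p = 0.000612). YAP1 fell in TCCSUP by 2.02 on the log2 scale, and its difference of -1.65 ± 0.21 (adjusted p = 3.72e-05) was within the fold limit.

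Outside matrix genes, interferon-induced genes also held members of opposite response. Of 45 tested members, 20 (44.4%, against 4.70% of all) had a lower response in TCCSUP and 0 (against 3.93%) a higher one. In TCCSUP 38 fell (10.5% of all tested genes did) and 0 rose. In RT112 8 fell and 11 rose, where 7.27% and 16.1% of all tested genes did, and 9 fell in TCCSUP and rose in RT112 (0.887% of all). RSAD2, the antiviral enzyme viperin, was at 176 and 122 CPM in TCCSUP control and 3.07 and 2.95 CPM treated, and at 0.359 and 0.542 CPM in RT112 control and 6.18 and 6.90 CPM treated. Its log2 difference of -9.48 ± 1.10 (adjusted p = 1.53e-05) was the lowest among the opposite genes above the floor with a mean log2 CPM over 1. IFIT1, an antiviral RNA-binding protein, was at 174 and 159 and then 50.7 and 36.4 CPM in TCCSUP and at 9.67 and 7.15 and then 115 and 82 CPM in RT112. This placed RT112 above TCCSUP after treatment (log2 difference -5.49 ± 0.33, adjusted p = 3.86e-08). OASL and EPSTI1, both interferon-induced, had log2 differences of -4.83 ± 0.52 and -5.45 ± 0.54 (adjusted p = 7.1e-06 and 3.7e-06).

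Promoter sequence from RefSeq (GRCh38.p14, the 250 bases before the annotated start) was held for 127 of the 189 genes that fell in TCCSUP and rose in RT112, for 56 of the 76 with the reverse pattern and for 14270 of all tested genes. The letters AANNGAAA, the core bound by interferon regulatory factors, were searched on both strands. They occurred in 33 of the 127 promoters (26%), in 10 of the 56 (17.9%) and in 15.7% of all. The 33 included each of the 7 interferon-induced genes of the 189 with a promoter here, ISG15, IFI6, RSAD2, IFIH1, IFIT1, EPSTI1 and BST2, and of the tested members of that list with a promoter 27 of 34 held the letters (79.4%). Of the 28 matrix and mesenchymal genes of the 189, 17 had a promoter here, and 4 of these held the letters, ZEB2, PDGFRB, SPARC and ACTA2 (23.5%), against 28 of the 154 tested members with a promoter (18.2%). Other letters searched on both strands were TATAAA (11%, 7.14% and 6.94%), CAGGTG, the E-box bound by SNAI and ZEB factors (11.8%, 19.6% and 16.6%), GGAATG of TEAD factors (13.4%, 8.93% and 9.80%) and TGANTCA of AP-1 (5.51%, 1.79% and 4.74%), each for the 189, the 76 and all tested genes in this order. A match is a description of the letters and not of binding. The 3 promoters shown have matches to AANNGAAA or its reverse complement in capitals. They are those of IFIT1 (chr10:89392373-89392622, plus strand) and ISG15 (chr1:1013247-1013496, plus strand), for the interferon genes, and ZEB2 (chr2:144520120-144520369, minus strand), as an EMT transcription factor that holds the same letters, there within a run of adenines.
IFIT1: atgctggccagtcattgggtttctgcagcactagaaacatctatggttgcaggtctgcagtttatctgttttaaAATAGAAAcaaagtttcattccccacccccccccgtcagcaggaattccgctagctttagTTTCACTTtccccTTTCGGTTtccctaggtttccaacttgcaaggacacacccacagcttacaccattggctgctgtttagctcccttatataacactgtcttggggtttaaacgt
ISG15: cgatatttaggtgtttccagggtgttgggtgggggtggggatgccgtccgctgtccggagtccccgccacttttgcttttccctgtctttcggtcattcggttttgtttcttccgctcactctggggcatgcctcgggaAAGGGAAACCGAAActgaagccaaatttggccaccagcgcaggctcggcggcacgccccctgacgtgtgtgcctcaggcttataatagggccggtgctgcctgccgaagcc
ZEB2: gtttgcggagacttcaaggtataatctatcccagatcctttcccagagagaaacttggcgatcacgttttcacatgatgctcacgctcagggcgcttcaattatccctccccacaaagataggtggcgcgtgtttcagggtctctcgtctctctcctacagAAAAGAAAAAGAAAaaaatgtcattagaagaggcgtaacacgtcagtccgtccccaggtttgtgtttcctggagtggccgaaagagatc
IFIT1 has 3 matches, the first beginning 176 bases before the start, and ISG15 and ZEB2 have 2 each, the first beginning 111 and 89 bases before it. ISG15, a ubiquitin-like modifier, moved as IFIT1 did, from 144 and 138 to 69.2 and 53.2 CPM in TCCSUP and from 18.4 and 14.3 to 96.6 and 72.9 CPM in RT112 (log2 difference -3.57 ± 0.37, adjusted p = 5.03e-06; named for its sequence after its values were seen).

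Cell cycle genes that changed within a line mostly fell. Of 48 tested, 15 (31.2%, against 4.70% of all) had a lower response in TCCSUP and 3 (6.25%, against 3.93%) a higher one. In TCCSUP 29 fell and 1 rose, where 10.5% and 19.2% of all tested genes did. In RT112 17 fell and 0 rose, against 7.27% and 16.1% of all. An opposite pattern was met by 0, against 0.887% and 0.357% of all by direction, shares too low to set 0 of 48 apart. Those with a lower response included genes of mitosis. PLK1, a mitotic kinase, fell in TCCSUP from 29.1 and 32.8 to 3.29 and 3.78 CPM and had 33 and 34.3 and then 29.2 and 23.9 CPM in RT112 (log2 difference -2.79 ± 0.41, adjusted p = 0.000121). The centromere histone CENPA, the cyclin CCNB2 and the ubiquitin enzyme UBE2C had differences of -3.29 ± 0.48, -2.83 ± 0.33 and -2.72 ± 0.41. The 3 genes with a higher response, named after their values were seen, were MCM2, MCM3 and MCM5, subunits of the replicative helicase. MCM2 fell in RT112 from 334 and 273 to 97.3 and 87.1 CPM and had no call in TCCSUP (log2 difference 2.26 ± 0.24, adjusted p = 8.06e-06).

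Of all genes falling in TCCSUP and rising in RT112, above the floor and with a mean log2 CPM over 1, the 8 with the lowest log2 differences were RSAD2, MGP, OXTR, APOBEC3B, C12orf75, RELN, SLIT2 and DCN. MGP, the matrix Gla protein that holds back calcification, was at 47 and 57.4 CPM in TCCSUP control and 4.6 and 5.55 CPM treated, and at 0.948 and 1.25 CPM in RT112 control and 31.8 and 33.4 CPM treated. Treatment thus took RT112 above TCCSUP (log2 difference of response -8.25 ± 0.42, adjusted p = 3.79e-08). OXTR, the oxytocin receptor, fell from 317 and 282 to 21 and 19.4 CPM in TCCSUP and rose from 0.556 and 0.271 to 8.02 and 8.69 CPM in RT112 (log2 difference -8.20 ± 0.44, adjusted p = 1.52e-08). APOBEC3B, a cytidine deaminase, fell from 19.9 and 30.3 to 2.47 and 2.75 CPM in TCCSUP and rose from 2.55 and 2.88 to 67.8 and 94.9 CPM in RT112, and its counts are uncertain because close paralogs can share its reads. SLIT2, a secreted guidance ligand, and RELN, a large secreted glycoprotein, fell in TCCSUP from 65.9 and 72.9 to 30.2 and 29.9 CPM and from 159 and 95.9 to 52.9 and 45.3 CPM. They rose in RT112 from 5 and 0 counts to 169 and 169 and from 4 and 0 counts to 142 and 166. Their differences of -7.43 and -7.76 were -11.67 and -11.71 without RT112 control replicate 1. C12orf75 fell from 104 and 105 to 36.4 and 39.3 CPM in TCCSUP and rose from 0.359 and 0.203 to 26.6 and 19 CPM in RT112.

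In the reverse direction, the 8 with the highest log2 differences were RNF128, H19, FAT2, GJB2, CPVL, PPFIBP2, SHH and FER1L4, all of them at or under 0.651 CPM in each TCCSUP control library. RNF128, a membrane-bound ubiquitin ligase, was at 149 and 142 CPM in RT112 control and 7.75 and 20.9 CPM treated, and rose in TCCSUP from 0 and 11 counts to 10.7 and 6.84 CPM (log2 difference 8.68 ± 0.71, adjusted p = 6.06e-07). Without TCCSUP control replicate 2, which leaves 0 counts in that group, the difference was 14.25. FAT2, an atypical cadherin of squamous epithelia, fell in RT112 from 368 and 409 to 94.1 and 147 CPM and rose in TCCSUP from 0.198 and 0.651 to 14.3 and 21.8 CPM (7.07 ± 0.62, adjusted p = 1.15e-06). The groups of these genes did not overlap within a line, as was so for all 76 genes of this direction. Here too the choice by calls in both lines means that this adds no support. GJB2, the gap junction protein connexin 26, fell in RT112 from 153 and 186 to 20.8 and 28.9 CPM and went in TCCSUP from 4 and 6 counts to 109 and 76 counts. The long noncoding RNA H19 fell in RT112 from 650.0 and 527 to 252 and 153 CPM and rose in TCCSUP from 4 and 5 counts to 417 and 162. SHH, the ligand sonic hedgehog, had log2 fold changes of 4.78 in TCCSUP and -1.88 in RT112, and those of CPVL, PPFIBP2 and FER1L4 were 3.53, 5.00 and 4.98 in TCCSUP and -3.14, -1.67 and -1.62 in RT112. The differences of SHH and PPFIBP2, 6.65 and 6.66, were 11.78 and 12.37 without TCCSUP control replicate 1. None of the 76 genes was in a matrix or mesenchymal list. This pattern was met by 0.357% of all tested genes, too low a share to set 0 of 221 members apart.

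The genes of opposite response were also described by their level before treatment, which was higher in TCCSUP control for 9796 of all 21297 tested genes. Of the 189 genes, 187 were higher in TCCSUP control than in RT112 control, by a median log2 ratio of 6.35, which fell to 1.59 after treatment, and 178 were closer between the lines after treatment than before. A higher level in TCCSUP was kept after treatment by 146. Of the 76 genes, 1 was higher in TCCSUP control, the median log2 ratio went from -7.09 to -1.77, and 72 were closer after treatment. RT112 control was at the floor for 55 of the 189 and TCCSUP control for 28 of the 76. Control libraries enter the ratio before treatment and the response alike. The choice of genes by opposite response also fixes the direction in which the ratio moves. For a gene higher at first in the line where it falls, the gap then narrows unless the order is exchanged. The ratios are thus a description with no test. The level reached in RT112 treated bore no fixed relation to that in TCCSUP control: it was 0.00559% for COL1A2, 0.350% for COL5A2, 2.28% for COL1A1, 2.79% for OXTR, 62.5% for MGP and 324% for APOBEC3B. Small noncoding RNA genes took 12.1% to 12.4% of counts in TCCSUP control and 19.3% to 21.3% in TCCSUP treated, against 9.63% to 11.8% in the RT112 libraries, and without these genes 189 and 76 genes had opposite responses.

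**Figure D3:**
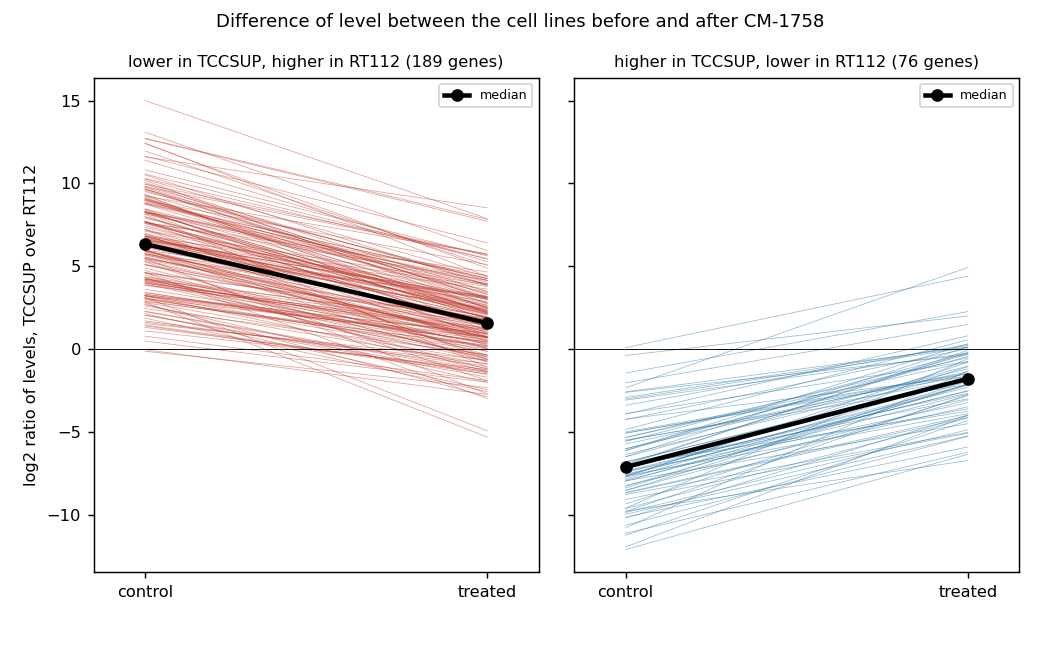
Log2 ratio of levels, TCCSUP over RT112, in control and treated cells for each of the 189 genes (left) and 76 genes (right) with opposite responses, with the median in black. The medians go from 6.35 to 1.59 and from -7.09 to -1.77, and the direction of the moves follows from the choice of the genes.

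Other pairs of cell lines of the series, 253J and J82 included, were counted in the same fit. TCCSUP and RT112 differed in 1839 genes, against 1190 for TCCSUP and J82, 1737 for TCCSUP and 253J, 1281 for RT112 and J82, 1756 for RT112 and 253J and 1481 for J82 and 253J. The pairs share libraries, and their counts were not tested against each other. In matrix and mesenchymal lists, the 80 genes lower in TCCSUP than in RT112 compared with 60 lower in TCCSUP than in J82 and 40 lower in TCCSUP than in 253J, and 12, 11 and 17 were higher. RT112 had 11 lower and 51 higher against 253J and 15 and 29 against J82, and J82 had 12 and 38 against 253J. Opposite responses numbered 265 for TCCSUP and RT112, 297 for TCCSUP and 253J, 273 for RT112 and 253J, 250 for J82 and 253J, 146 for TCCSUP and J82 and 139 for RT112 and J82. Of the 189 genes, 31 (16.4%, against 6.47% of all tested genes) fell and 39 (20.6%, against 13.7%) rose in J82, and 54 (28.6%, against 12.2%) fell and 42 (22.2%, against 16%) rose in 253J. Of the 76, 4 (5.26%, against 6.47% of all) fell and 32 (42.1%, against 13.7%) rose in J82. In 253J 16 of them (21.1%, against 12.2%) fell and 20 (26.3%, against 16%) rose. COL1A1 rose in J82 (2.27 on the log2 scale) and had a log2 fold change of -0.76, within the fold limit, in 253J. COL3A1 and DCN had no call in either line, with -0.81 and -0.53 in J82 and 3.16 and 5.92 in 253J (adjusted p = 0.158 and 0.0142 in 253J). The interferon-induced IFIT1, with -2.73 in J82 and 0.47 in 253J, and RSAD2, with -4.41 and 1.07, fell in J82 and had no call in 253J (adjusted p = 0.103 and 0.309). All 45 tested members of the interferon-induced list fell in J82, where 6.47% of all tested genes did. In 253J 15 members fell and 8 rose, against 12.2% and 16% of all.

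**Figure D4:**
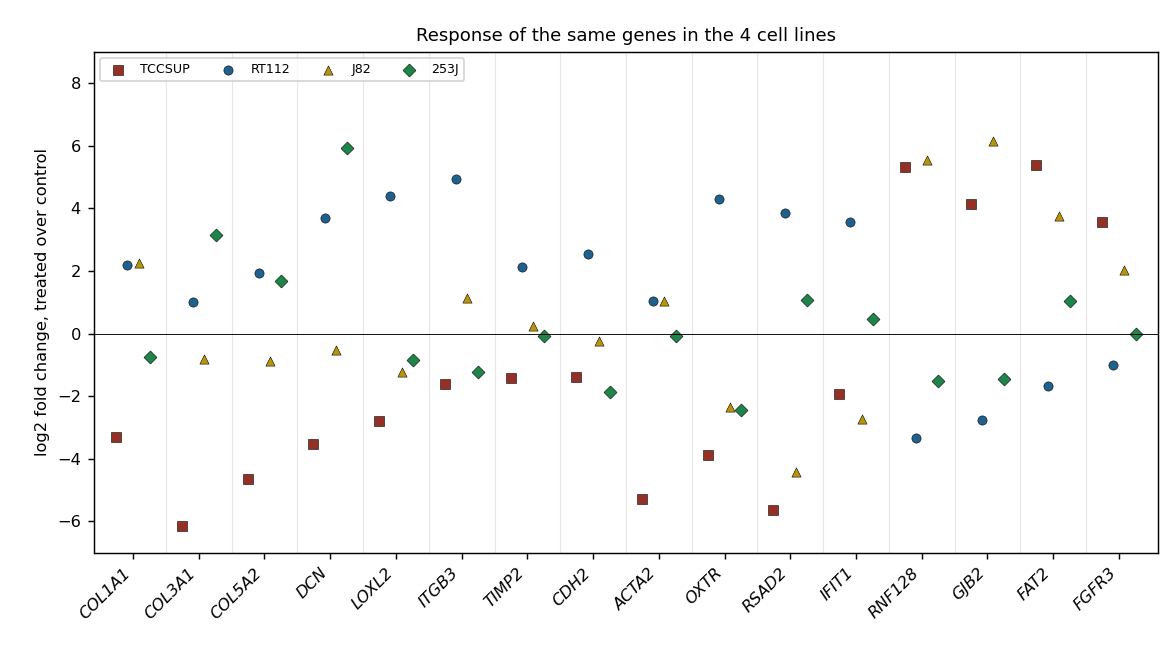
Log2 fold change of treated over control in TCCSUP, RT112, J82 and 253J for 16 genes with different responses in TCCSUP and RT112. TCCSUP and RT112 lie on opposite sides of 0 for all 16 genes. For all but COL3A1 this follows from their choice among the genes of opposite response. J82 and 253J fall on either side.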

How the data were processed

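Raw read counts per gene were analysed for the TCCSUP and RT112 libraries, fitted together with the libraries of 253J and J82 so that the groups share 1 estimate of the spread. The authors deposited 1 table of raw counts, whole numbers without normalization, on 35993 gene symbols. The submitters' processing notes name HISAT2, StringTie and GRCh37, and the version, role and strand setting are not given in the sources used here, so genes that overlap or share reads with a copy are uncertain. The contrast, the gene lists, the motif letters and the genes named were chosen with earlier results of these data known.

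Low genes were removed by filterByExpr, with the 8 groups as design, leaving 21297. Library sizes were scaled by TMM, and edgeR 4.0.16 (R 4.3.3) gave quasi-likelihood fits and tests. P-values were adjusted by Benjamini-Hochberg over all tested genes. A response differed at an adjusted p under 0.01 and an absolute log2 difference above 2, and within a line a gene fell or rose at an adjusted p under 0.01 and a log2 fold change beyond 1. The SE of a log2 value was taken from its F statistic (value over root F). CPM used TMM-scaled library sizes. A group with 3 counts or fewer in each library was at the floor, and bounds were computed against 3 counts per library. Named were, above the floor and at a mean log2 CPM over 1, the 8 most extreme genes in each opposite direction, the 4 most different members of each list, and fixed defining genes whatever their values. Genes at the floor were named as list members with their counts. Some genes that this rule names are not reported here.

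On simulated counts for 20663 genes, 182 of 200 genes changed 8-fold in TCCSUP were recovered, with 1 other call. The changed genes were taken above a count limit in TCCSUP control, and all genes had 1 common spread. No simulated gene rose from a control level without counts, so the recovery does not carry over to genes at the floor in control. Alternatives were RLE, library size alone, DESeq2 1.42.0, the 8 libraries alone, other filters and thresholds, the replicate number as a block, the small noncoding RNA genes left out, and each library left out. The 2 libraries of a group are independent experiments by the study's account, and depth limits calls near the floor.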

Additional observations from a re-analysis of the deposited data

Results flagged for a closer look

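The difference of response between TCCSUP and RT112 was itself tested, and each result given here passed that test (edgeR, adjusted p under 0.01 and a log2 difference beyond 2). It holds 1001 genes with a lower and 838 with a higher response in TCCSUP, and 189 and 76 genes of opposite response. No group has more than 2 libraries, so no library was checked as standing apart within its group. Of the most extreme genes that fell in TCCSUP and rose in RT112, the log2 differences of response were -9.48 (RSAD2), -8.25 (MGP), -8.20 (OXTR), -8.17 (APOBEC3B), -7.77 (C12orf75), -7.76 (RELN), -7.43 (SLIT2) and -7.22 (DCN). Those of the reverse pattern were 8.68 (RNF128), 7.47 (H19), 7.07 (FAT2), 6.92 (GJB2), 6.67 (CPVL), 6.66 (PPFIBP2), 6.65 (SHH) and 6.60 (FER1L4). Collagens had -7.56 (COL6A3), -7.15 (COL3A1), -6.57 (COL5A2) and -5.63 (COL1A2). Among the genes of collagen processing the values were -7.20 (LOXL2), -5.05 (LOX), -4.70 (FKBP10) and -4.50 (ADAMTS14). Glycoproteins and proteoglycans not yet given had -6.44 (CTHRC1), -4.65 (FBN1) and -4.11 (IGFBP5). For laminins the differences were -5.86 (LAMA4) and 3.04 (LAMA1). Integrins had -6.56 (ITGB3), -3.42 (ITGB8), -3.29 (ITGA11) and -3.11 (ITGA5). Proteases and inhibitors had 3.94 (MMP1), -3.58 (ADAM19), -3.54 (TIMP2) and -3.11 (MMP16). EMT factors had -3.23 (SNAI1), -3.19 (ZEB1) and -2.32 (SOX9). The mesenchymal list had -6.35 (ACTA2), -4.90 (LGALS1), -4.73 (TAGLN) and -4.42 (PMP22). Epithelial genes had 5.79 (CXADR), -4.52 (MUC1), 3.89 (DSP) and 3.17 (CGN). Urothelial genes had 4.57 (FGFR3), -2.76 (KRT18), 2.41 (TP63) and -2.25 (KRT8). In the TGF-beta list the values were -4.27 (TGFB2), -3.53 (FST), -3.42 (CCN2) and 3.34 (TGFBR3). YAP and TEAD genes had -4.62 (TEAD2), -3.49 (AXL) and -2.49 (F3). Interferon-induced genes had -5.49 (IFIT1), -5.45 (EPSTI1) and -4.83 (OASL). Cell cycle genes had -3.29 (CENPA), -2.83 (CCNB2), -2.79 (PLK1) and -2.72 (UBE2C). For genes named whatever their values, they were -5.50 (COL1A1), 3.33 (COL5A1), -2.66 (COL6A1), 4.71 (COL17A1), -2.10 (FN1), -11.06 (SPARC), -2.31 (VIM), -3.92 (CDH2), -6.23 (ZEB2) and -7.70 (TWIST1). The values of SPARC, ZEB2 and TWIST1, at the floor in RT112 control, are fitted values and no bounds, and those of RELN, SLIT2, CTHRC1, COL6A3, ADAMTS14, LAMA4, PPFIBP2, SHH, RNF128 and VIM moved by over 1.5 times when 1 control library was left out, so the order among the most extreme genes rests on single libraries.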

How the results depend on the processing

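No named difference that passed the test changed direction in any of the 16 alternatives that gave it a value; 15 gave one for all 76 named genes that differ, and requiring 10 counts in each of the 8 libraries left 29 of them without a value. The call was kept in each of those 15 by 72 of the 76, FN1, SNAI1, TP63 and VIM being the exceptions, and of the 47 with a value in all 16, 45 kept it in all 16. Among the named genes that had no call, KRT5, near the floor in TCCSUP, had a difference of -4.58, which ran from -5.54 (without TCCSUP control replicate 1) to 0.86 (without TCCSUP control replicate 2), and MMP2 one of -0.52, which ran from -1.68 (without TCCSUP treated replicate 2) to 0.13 (without TCCSUP treated replicate 1). The reported median log2 differences were -1.56 for collagens, -1.37 for collagen processing, -1.80 for matrix glycoproteins, -1.05 for laminins, -1.83 for integrins, -0.75 for matrix proteases, -2.19 for EMT factors, -2.72 for the mesenchymal list, -0.22 for epithelial genes, 0.67 for urothelial genes, -0.35 for TGF-beta genes, -1.01 for YAP and TEAD genes, -2.32 for interferon-induced genes, -1.56 for cell cycle genes and -1.57 for the 8 matrix and mesenchymal lists together, and none of them changed sign. Medians that moved by more than the spread between libraries are given by setting. With library size alone they were -1.40 for collagens, -1.21 for collagen processing, -1.64 for matrix glycoproteins, -0.88 for laminins, -2.56 for the mesenchymal list, -0.060 for epithelial genes, 0.83 for urothelial genes, -0.19 for TGF-beta genes, -0.85 for YAP and TEAD genes, -2.16 for interferon-induced genes and -1.41 for the 8 matrix and mesenchymal lists together, and 1437 genes were lower in TCCSUP. With DESeq2 the median was -2.36 for integrins, with the 8 libraries fitted alone -1.15 for collagens, -1.03 for matrix proteases and -1.71 for the 8 matrix and mesenchymal lists together, and with no filter -0.52 for matrix proteases and -2.41 for the mesenchymal list. Requiring 10 counts in each of the 8 libraries, which leaves fewer genes and removes those that start from the floor, gave 528 genes lower and 263 higher in response, 93 and 23 of opposite response, 1707 higher in TCCSUP and 1594 higher in RT112, with 50 matrix and mesenchymal genes lower, 5 higher and 14 opposite, and medians of -1.09 for collagens, -1.17 for collagen processing, -1.32 for integrins, -1.21 for matrix proteases, -1.01 for EMT factors, -2.37 for the mesenchymal list, -0.84 for epithelial genes, 0.28 for urothelial genes and -1.43 for the 8 matrix and mesenchymal lists together. With counts under 3 set to 3 the medians were -0.69 for collagens, -1.62 for integrins and -1.49 for the 8 matrix and mesenchymal lists together. With an adjusted p limit of 0.05, 131 genes rose in TCCSUP and fell in RT112. Without fold limits, 2045 responses were lower and 1647 higher in TCCSUP, 360 and 165 were opposite, and 3673 genes fell in TCCSUP and 3133 in RT112. Leaving out each library in turn, with the lone library assumed to vary like the other groups, gave medians from -1.84 to -0.50 for collagens, -1.52 to -1.32 for collagen processing, -2.07 to -1.63 for matrix glycoproteins, -1.20 to -0.91 for laminins, -2.48 to -1.44 for integrins, -1.06 to -0.66 for matrix proteases, -2.31 to -1.41 for EMT factors, -3.06 to -2.35 for the mesenchymal list, -0.41 to -0.19 for epithelial genes, 0.55 to 1.02 for urothelial genes, -0.49 to -0.26 for TGF-beta genes, -1.12 to -0.97 for YAP and TEAD genes, -2.57 to -2.08 for interferon-induced genes, -1.73 to -1.44 for cell cycle genes and -1.66 to -1.49 for the 8 matrix and mesenchymal lists together, and 49 to 70 genes that rose in TCCSUP and fell in RT112, the 49 without RT112 treated replicate 1. Medians moved beyond 1.5 times, besides those of collagens given above, for EMT factors, without RT112 treated replicate 2 (-1.41), for epithelial genes without TCCSUP treated replicate 1 (-0.41) or RT112 control replicate 1 (-0.34), and for urothelial genes without RT112 control replicate 1 (1.02) or TCCSUP control replicate 1 (1.01). Of the named genes that differ, 10 moved beyond 1.5 times when 1 control library was left out: RELN to -11.71, SLIT2 to -11.67, CTHRC1 to -10.68 and VIM to -3.68 without RT112 control replicate 1, COL6A3 to -11.82, ADAMTS14 to -9.22 and LAMA4 to -11.21 without RT112 control replicate 2, PPFIBP2 to 12.37 and SHH to 11.78 without TCCSUP control replicate 1, and RNF128 to 14.25 without TCCSUP control replicate 2. The cause of these moves was not tested. Samples of the same replicate number had correlations of deviations of 0.043 in RT112, 0.017 in TCCSUP and 0.218 in J82. With 2 libraries per group, these cannot tell whether such samples came from the same experiment, so the block was kept as an alternative. With the replicate block 995 responses were lower and 770 higher, 201 and 76 were opposite, and the median of the 8 matrix and mesenchymal lists was -1.55. SNAI1 lost its call there (adjusted p = 0.0199) and with library size alone (adjusted p = 0.0108). Depth limits what can be said of genes at or under 3 counts in a group, for which folds are lower bounds.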
